A study of Homo sapiens with 12 samples.

Results

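RNA polymerase III is the nuclear enzyme that makes short untranslated RNAs, among them the transfer RNAs, 5S ribosomal RNA and U6 small nuclear RNA. The genes described here code for POLR3G and other parts of this machinery. They are 10 of the 11963 genes that had a probe set annotated to a single gene, namely the polymerase III subunits POLR3G, POLR3B, POLR3C, POLR3D, POLR3E, POLR3F and POLR3K and the initiation factor genes BRF1, GTF3C1 and GTF3C2. Together they had 17 probe sets, each a group of short probes summarised to 1 value, and all 17 entered the tests, with no filter on dim signal. POLR3G was selected on its measured U937 change, among the largest decreases there, so its values in that line are a description and carry no test; the others were chosen by name, with results of these arrays known.

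Total RNA was measured on 12 Affymetrix arrays, 3 for each of 4 groups. U937, a monocytic leukaemia cell line, and MV4-11, a myelomonocytic leukaemia cell line with an MLL fusion, each carried either a scrambled short hairpin RNA (shRNA) or shRNA against CHD4, the ATPase of the NuRD chromatin remodelling complex. All 4 groups carried a lentiviral pRRL.H1 vector that also expresses GFP and grew in the same medium with 10% serum. The sample labels write the target as CDH4 and the series text as CHD4, and neither gives the hairpin sequences or says whether GFP-positive cells were selected. The 3 CHD4 probe sets had log2 changes of -2.20 to -1.75 with the shRNA in U937 and of -2.00 to -1.76 in MV4-11, with no overlap between arrays (limma adjusted p between 1.25e-05 and 6e-05). Of the 2 markers of MLL-fusion leukaemia measured, FLT3 had a mean of 9.99 in scrambled MV4-11 and 6.64 in scrambled U937. The other, MEIS1, was high in both scrambled groups, at 11.43 in MV4-11 and 10.85 in U937, and its change with CHD4 shRNA is given below. In MV4-11, arrays with the same replicate number deviated together across all probe sets (correlations of 0.43, 0.47 and 0.49). The main fit has no block for the number, and the value with a block is given beside a member's result where it changes the call. Values are listed in the order of the replicate numbers, and ordinals name an array by that number.

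Some markers of other lineages changed with the hairpin, and not all myeloid markers were bright. Of 10 myeloid markers 8 were measured, with group means up to 13.73 (LYZ) but medians of only 7.17 to 7.35, and CD14 and MPO were dim, at percentiles 22.9 and 26.6 of all probe sets by mean. Of these 8, 0 passed the limma threshold in either line. Without overlap, AZU1 fell in MV4-11 (log2 change -0.83, SE 0.34, limma adjusted p = 0.166). LYZ rose there (0.36, SE 0.18, adjusted p = 0.261) and CEBPA rose in U937 (0.24, SE 0.09, adjusted p = 0.196), also without overlap. The group medians were 6.03 to 6.59 for T-lymphoid, 6.22 to 6.48 for B-lymphoid, 5.83 to 6.39 for erythroid, 5.49 to 5.61 for fibroblast and 4.35 to 4.41 for epithelial markers. Each marker was read on its brightest probe set. Of the 18 markers measured in these 5 other lists, 1 rose and 2 fell past the limma threshold in U937. In that line 1.86% of all probe sets rose and 2.65% fell. In MV4-11, 1 of the 18 rose and 0 fell, against 3.88% and 3.59% of all probe sets. CD2, a T-cell adhesion molecule, rose from 5.32 to 6.72 in U937 (log2 change 1.40, SE 0.17, adjusted p = 0.000735) and from 5.28 to 7.05 in MV4-11 (1.77, SE 0.17, adjusted p = 0.000148), without overlap. The other 3 T-lymphoid markers, CD3E, CD3D and CD5, overlapped between hairpins in both lines, and the mean of all 4 on an array lay between 5.96 and 6.25 in scrambled and between 6.44 and 6.60 in CHD4 shRNA U937 cells, and between 5.95 and 6.05, then 6.37 and 6.55, in MV4-11. PAX5, a B-lymphoid transcription factor, fell on its brighter probe set from 8.18 to 7.28 in U937 (-0.90, SE 0.14, adjusted p = 0.00297). That probe set read 7.91 and 7.60 in MV4-11, also without overlap (-0.31, SE 0.14, adjusted p = 0.197). The dimmer PAX5 probe set did not fall in U937, with means of 6.13 (scrambled) and 6.14 (CHD4 shRNA) and overlap. In MV4-11 the dimmer probe set had means of 6.05 and 5.82, without overlap. The erythroid factor KLF1 fell in U937 (-1.03, SE 0.25, adjusted p = 0.0361), a call lost without any 1 of 7 arrays (0.0506 to 0.16): those of U937 other than the third CHD4 shRNA array, the second scrambled and the first CHD4 shRNA array of MV4-11. The part of these marker changes in the results that follow was not tested.

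Polymerase III works with a set of assembly factors. TFIIIC, which includes GTF3C1 and GTF3C2, binds the internal promoter of a transfer RNA gene, and GTF3C1 contacts its B box. TFIIIC then places TFIIIB, which includes BRF1, ahead of the gene, and TFIIIB recruits the polymerase. Within the enzyme, POLR3C, POLR3F and POLR3G (or its paralog POLR3GL) form a trimer that acts in initiation, POLR3D and POLR3E form a dimer related to TFIIF, POLR3B is the second-largest subunit of the catalytic core, and POLR3K is a small subunit that acts in termination. POLR3G is known for high levels in embryonic stem cells and tumours, whereas POLR3GL predominates in many differentiated tissues. POLR3GL was not analysed here.

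Promoter windows from RefSeq (GRCh38.p14, 250 bases before to 50 after an annotated start, 300 bases in all) were held for 8 of the 10 genes, with 14 windows. The 2 genes without a window were POLR3G and POLR3D, so their promoters were not searched. The words searched, on both strands, were the E-box CACGTG, a site read by MYC among other factors, and the B box GTTCGANNC; both were chosen with the expression results known. The E-box was in 3 member windows, each of a different gene, and in 7.26% of all 35116 windows. The B box was in 2 member windows, those of POLR3E and POLR3K, and in 0.829% of all windows. The matches are shown with their surroundings because these genes bear on the results that follow, and for POLR3E, which holds both words, the whole window is given. Capitals mark the E-box in POLR3C and GTF3C2, the B box in POLR3K, and the B box followed by the E-box in POLR3E.
POLR3C, chr1:145823983-145824030, plus strand: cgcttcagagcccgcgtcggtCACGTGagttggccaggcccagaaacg
GTF3C2, chr2:27356841-27356888, minus strand: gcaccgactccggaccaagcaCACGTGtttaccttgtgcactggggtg
POLR3K, chr16:53567-53617, minus strand: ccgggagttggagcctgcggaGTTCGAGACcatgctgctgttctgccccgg
POLR3E, chr16:22297159-22297458, plus strand: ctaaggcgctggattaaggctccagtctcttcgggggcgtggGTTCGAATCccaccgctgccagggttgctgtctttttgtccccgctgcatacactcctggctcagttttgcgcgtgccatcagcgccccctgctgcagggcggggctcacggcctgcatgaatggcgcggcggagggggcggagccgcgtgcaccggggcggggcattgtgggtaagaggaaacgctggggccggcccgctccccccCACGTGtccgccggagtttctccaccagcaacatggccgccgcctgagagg
The E-box began 196 bases before the start of POLR3C, 103 before that of GTF3C2 and 1 before that of POLR3E. The B box of POLR3K lies just after the start. That of the POLR3E window began 208 bases before the start and lies inside an annotated leucine transfer RNA gene, TRL-AAG2-4 (chr16:22297140-22297221, 82 bases long). That gene ends 187 bases before POLR3E begins, and 63 of its bases are in the window printed above. The match describes the letters in the window and is not evidence of binding.

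POLR3G was lower with CHD4 shRNA in both lines on its brighter probe set, 206653_at. Scrambled U937 arrays read 7.78, 8.03 and 8.47 (log2 RMA values, mean 8.09 ± 0.35, SD, n = 3), and CHD4 shRNA arrays 6.58, 6.16 and 5.79 (6.18 ± 0.40, n = 3). Every CHD4 shRNA array was below every scrambled array. The log2 change in U937 was -1.92 (SE 0.23), 3.78-fold lower, which leaves 26.5% of the control signal and ranked 5 from the lowest of 22215 probe sets, the value for which the gene was chosen.

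In MV4-11 the scrambled arrays read 7.31, 6.88 and 7.04 (7.08 ± 0.22, SD, n = 3) and the CHD4 shRNA arrays 6.63, 6.39 and 5.97 (6.33 ± 0.33, n = 3). Again the groups did not overlap, with a gap between 6.63 and 6.88. The MV4-11 log2 change was -0.75 (SE 0.23, 95% confidence interval -1.23 to -0.26), 1.68-fold lower, leaving 59.6% of the control signal. The limma adjusted p over all probe sets was 0.0641, which misses the threshold of 0.05. With the replicate number as a block within MV4-11, a fit added after seeing the data, it was 0.0367, and with a block within each line 0.0538. Leaving out the third U937 CHD4 shRNA array gave 0.0449 through the shared estimate of spread. All 3 same-number differences were below 0, at -0.68, -0.49 and -1.07.

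The 4 groups can be put in order by their POLR3G values on this probe set. Scrambled U937 was highest, with all of its arrays above those of scrambled MV4-11, and the mean was 1.02 (SE 0.23) higher on the log2 scale. Scrambled MV4-11 came next. The CHD4 shRNA arrays of the 2 lines shared a range, 5.97 to 6.63 in MV4-11 and 5.79 to 6.58 in U937, and do not differ beyond their spread. The change in MV4-11 was smaller in size by 1.17 (SE 0.32) than that in U937. The scrambled difference and this one use the U937 arrays on which the gene was picked and are given as descriptions. In bulk RNA, fewer cells that express a gene and less RNA per cell cannot be told apart.

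The other POLR3G probe set, 206654_s_at, was dim, with a mean of 5.01 at percentile 20.8 of all probe sets, against percentile 49.1 for the first. Scrambled U937 arrays read 5.10, 5.21 and 5.42, and CHD4 shRNA arrays 5.13, 4.80 and 4.92. The MV4-11 arrays read 5.08, 4.81 and 5.06 with the scrambled and 4.97, 4.74 and 4.91 with the CHD4 hairpin. On this probe set the groups overlapped in both lines. The log2 change was -0.29 (SE 0.12) in U937 and -0.11 (SE 0.12, limma adjusted p = 0.676) in MV4-11. The 2 probe sets thus agree in sign and differ in size, and the cause was not tested.

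**Figure D1:**
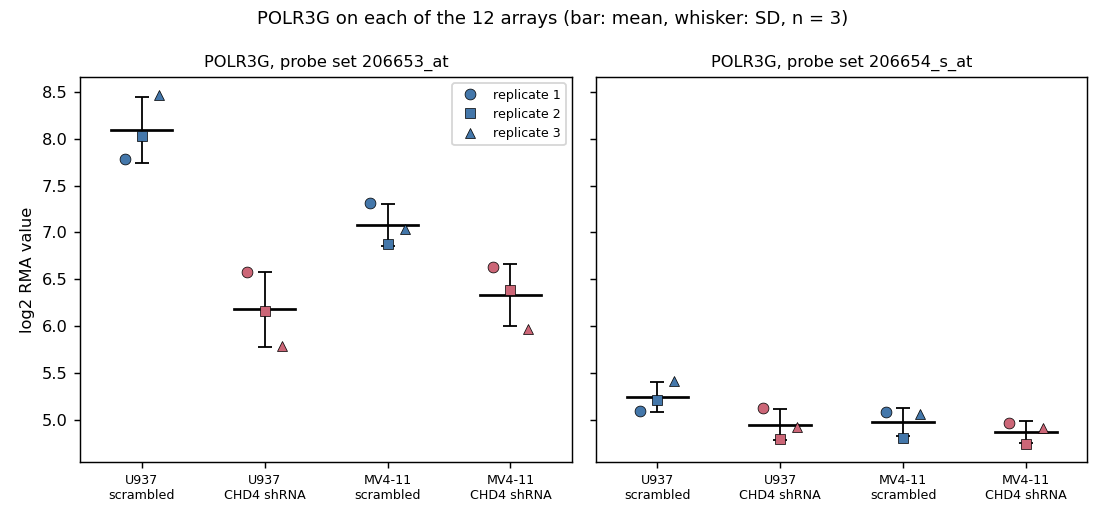
Log2 RMA value of POLR3G on each of the 12 arrays, for its 2 probe sets; symbols give the replicate number, bars the mean and whiskers the SD of 3 arrays. On 206653_at the CHD4 shRNA means are 6.18 in U937 and 6.33 in MV4-11, below the scrambled means of 8.09 and 7.08, and on 206654_s_at all 12 values lie between 4.74 and 5.42.

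Among the 15 probe sets of the other 9 genes, 0 passed the limma threshold in U937, where 4.51% of all probe sets did (1.86% higher and 2.65% lower). At an unadjusted p under 0.05 there were 3 of 15 (20%), against 17.0% of all probe sets. In MV4-11, POLR3D was the 1 probe set of all 17 that passed, where 7.47% of all probe sets did (3.88% higher and 3.59% lower). At an unadjusted p under 0.05 there were 4 of 17 (23.5%), against 22.3%. The difference between the lines passed for 0 of 15 probe sets and for 0% of all probe sets, and at an unadjusted p under 0.05 for 0 of 15, against 4.41%. These shares of called probe sets are near or below the background.

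Groups that did not overlap were counted too. In U937 the CHD4 shRNA arrays were all lower than the scrambled arrays in 6 of the 15 probe sets (40.0%), against 13.3% of all probe sets, and all higher in 0 of 15, against 10.9%. Those 6 belonged to POLR3B, POLR3C, POLR3D, POLR3E and, with 2 probe sets, GTF3C2. In MV4-11 all were lower in 3 of 15 (20%), against 13.0% of all probe sets, and all higher in 0 of 15, against 10.8%. Those 3 belonged to POLR3D, BRF1 and GTF3C2. Lower in both lines were 2 of 15 (13.3%), POLR3D and GTF3C2 on 210620_s_at, against 5.78% of all probe sets. The median log2 change of the 15 was -0.16 in U937, with 11 of 15 below 0. Over all probe sets the median was 0.00, with 11280 of 22215 below 0. In MV4-11 the median of the 15 was -0.02, with 10 of 15 below 0. That of all probe sets was -0.03, with 12301 of 22215 below 0. Probe sets of 1 gene share its transcripts and are not independent.

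**Figure D2:**
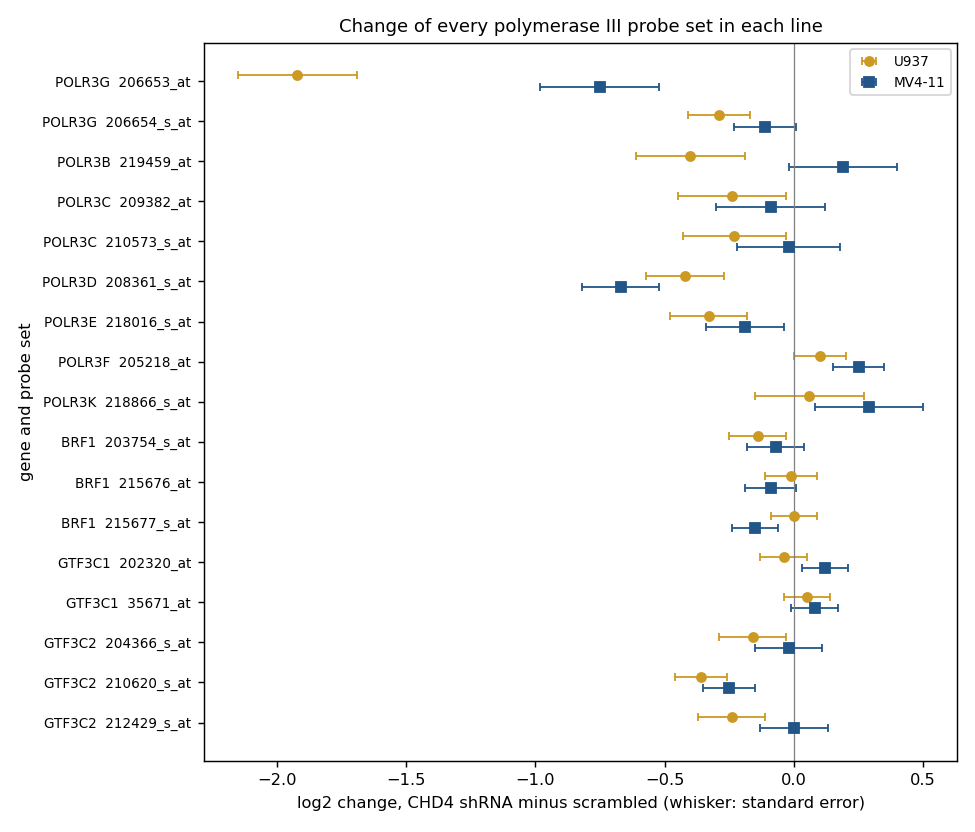
Log2 change (CHD4 shRNA minus scrambled) of all 17 probe sets in U937 (circles) and MV4-11 (squares), with whiskers for the standard error from the limma fit. POLR3G 206653_at is at -1.92 and -0.75, and POLR3D, at -0.42 and -0.67, is the 1 probe set past the threshold in MV4-11.

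POLR3D, of the TFIIF-like dimer, fell with CHD4 shRNA in MV4-11. The scrambled MV4-11 arrays read 7.74, 8.01 and 8.25 (8.00 ± 0.26, SD, n = 3) and the CHD4 shRNA arrays 7.13, 7.43 and 7.44 (7.33 ± 0.18, n = 3). All 3 CHD4 shRNA arrays were below all scrambled arrays, and the same-number differences were -0.61, -0.58 and -0.81. The log2 change was -0.67 (SE 0.15, 95% interval -0.98 to -0.35), 1.59-fold lower (limma adjusted p = 0.0163). The adjusted p was 0.00412 with the replicate block within MV4-11 and 0.062 when only the MV4-11 groups were fitted. The call was lost without the second scrambled MV4-11 array (0.0543), the third (0.071) or the first CHD4 shRNA array (0.0859).

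In U937 the POLR3D arrays read 7.48, 7.80 and 7.77 with the scrambled hairpin and 7.45, 7.18 and 7.15 with CHD4 shRNA. The groups were separate by a narrow margin, since the first CHD4 shRNA array lay 0.03 below the first scrambled array. The log2 change was -0.42 (SE 0.15, limma adjusted p = 0.137), and 0.0491 with the replicate block within MV4-11, which changes the estimate of spread. The change did not differ detectably between the lines (-0.24, SE 0.21, 95% interval -0.69 to 0.20, adjusted p = 0.944).

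POLR3E, the partner of POLR3D, was lower in U937 without passing the test. Its scrambled arrays read 9.44, 9.22 and 9.54 and its CHD4 shRNA arrays 9.11, 8.96 and 9.13, with no overlap. The log2 change was -0.33 (SE 0.15, limma adjusted p = 0.263). In MV4-11 the scrambled arrays read 9.28, 9.18 and 9.01 and the CHD4 shRNA arrays 8.99, 9.27 and 8.63. Those groups overlapped, with a log2 change of -0.19 (SE 0.15, adjusted p = 0.499).

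POLR3B, of the catalytic core, differed in sign between the lines and passed the test in neither. Scrambled U937 arrays read 8.13, 8.20 and 7.98 and CHD4 shRNA arrays 7.68, 7.59 and 7.84, all lower (log2 change -0.40, SE 0.21, limma adjusted p = 0.356). In MV4-11 the scrambled arrays read 7.58, 7.54 and 7.11 and the CHD4 shRNA arrays 7.70, 8.05 and 7.05. The third array of each MV4-11 group was lowest, and the log2 change was 0.19 (SE 0.21, adjusted p = 0.666). The difference between the lines was 0.59 (SE 0.29, 95% interval -0.04 to 1.22, adjusted p = 0.944).

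The 2 partners of POLR3G in the initiation trimer passed the test in neither line. POLR3C read 8.63, 8.63 and 8.87 in scrambled and 8.48, 8.23 and 8.69 in CHD4 shRNA U937 cells on 209382_at, with overlap. Its log2 change on that probe set was -0.24 (SE 0.21, limma adjusted p = 0.633) in U937 and -0.09 (SE 0.21, adjusted p = 0.863) in MV4-11. On 210573_s_at the U937 CHD4 shRNA arrays were all lower, with a log2 change of -0.23 (SE 0.20, adjusted p = 0.632), and the MV4-11 change was -0.02 (SE 0.20). POLR3F read 7.86, 7.99 and 8.10 in scrambled and 8.02, 8.11 and 8.11 in CHD4 shRNA U937 cells. In MV4-11, POLR3F read 8.05, 7.90 and 8.22, then 8.34, 8.39 and 8.20. These groups overlapped in both lines, and the log2 changes of POLR3F were 0.10 (SE 0.10, adjusted p = 0.73) and 0.25 (SE 0.10, adjusted p = 0.167). The difference in change between POLR3G and these genes was not tested.

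POLR3K, the termination subunit, overlapped between groups in both lines. U937 arrays read 9.33, 9.11 and 9.55 with the scrambled hairpin and 9.19, 9.14 and 9.84 with CHD4 shRNA, a log2 change of 0.06 (SE 0.21, limma adjusted p = 0.937). MV4-11 arrays read 9.51, 9.64 and 9.36, then 9.81, 10.15 and 9.41, a log2 change of 0.29 (SE 0.21, adjusted p = 0.468). The third MV4-11 array was again the lowest of both its groups.

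Over all 17 probe sets the third MV4-11 array was the lowest of its group in 11 of 17 in the scrambled group and in 11 of 17 in the CHD4 shRNA group. Over all probe sets these arrays were lowest in 39.1% and 35.6%. What these arrays share beyond the number is not given in the labels, and its part in the MV4-11 values was not tested.

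**Figure D3:**
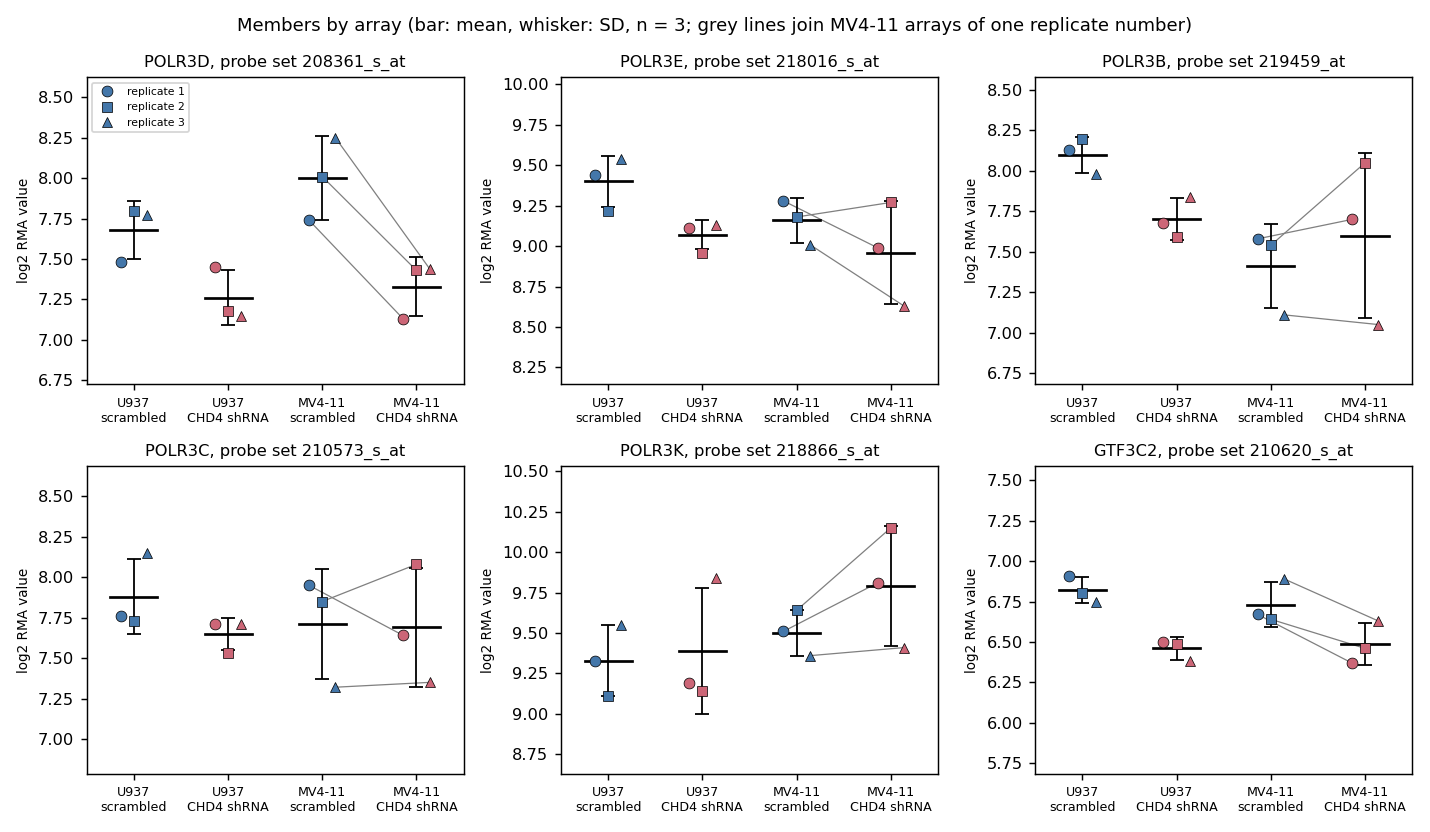
Log2 RMA values of 6 probe sets by array in the 4 groups, each panel spanning the same range of values. For a gene with several probe sets, the one with the lowest unadjusted limma p in U937 is shown. Symbols give the replicate number, bars the mean, whiskers the SD of 3 arrays, and grey lines join MV4-11 arrays of 1 number. The brighter GTF3C2 probe sets, not shown, changed by -0.02 and 0.00 in MV4-11. All 3 lines go down for POLR3D (-0.61, -0.58 and -0.81) and for GTF3C2 210620_s_at, and the third MV4-11 array is lowest in both groups for POLR3B, POLR3C, POLR3E and POLR3K.

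GTF3C2, a TFIIIC subunit, came closest to the threshold in U937, on the dimmest of its 3 probe sets. On 210620_s_at, scrambled U937 arrays read 6.91, 6.80 and 6.75 and CHD4 shRNA arrays 6.50, 6.49 and 6.38. All were lower, with a log2 change of -0.36 (SE 0.10, 95% interval -0.58 to -0.14, limma adjusted p = 0.0628). The adjusted p was 0.0499 without the dimmest 25% of probe sets, 0.0461 after quantile normalization of the deposited values and 0.0482 without the third MV4-11 CHD4 shRNA array. With the replicate block within MV4-11 it was 0.0253, with a block within each line 0.0189 and with 1 block common to the lines 0.0893. MV4-11 arrays read 6.67, 6.64 and 6.89, then 6.37, 6.46 and 6.63. These groups were also separate, by 0.01, with a log2 change of -0.25 (SE 0.10, adjusted p = 0.167).

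The brighter GTF3C2 probe sets moved less. On 204366_s_at the log2 change was -0.16 (SE 0.13, limma adjusted p = 0.633) in U937 and -0.02 (SE 0.13) in MV4-11. On 212429_s_at it was -0.24 (SE 0.13, adjusted p = 0.396) in U937, with separate groups, and 0.00 (SE 0.13) in MV4-11. The GTF3C2 probe sets share a sign in U937 and in MV4-11 only 210620_s_at departed from 0 by more than its standard error.

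GTF3C1, the largest TFIIIC subunit, hardly differed between hairpins. Its log2 changes were -0.04 and 0.05 in U937 and 0.12 and 0.08 in MV4-11 (SE 0.09 each), with overlap in every case. The 95% intervals ran from -0.24 to 0.25 in U937 and from -0.11 to 0.32 in MV4-11 over both probe sets.

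BRF1, a TFIIIB subunit, had log2 changes of -0.14 (SE 0.11), -0.01 (SE 0.10) and 0.00 (SE 0.09) in U937, with overlap on all 3 probe sets. In MV4-11 they were -0.07, -0.09 and -0.15, with limma adjusted p of 0.773, 0.688 and 0.362. Only the last, on 215677_s_at, had separate groups, with scrambled arrays at 6.78, 6.92 and 6.81 and CHD4 shRNA arrays at 6.71, 6.72 and 6.62.

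The scrambled controls give the levels of these genes in the 2 lines without CHD4 shRNA. Among the 15 probe sets other than those of POLR3G, 0 passed limma, where 4.45% of all probe sets did. At an unadjusted p under 0.05 there were 4 of 15 (26.7%), against 18.8%. MV4-11 arrays were all lower in 2 of 15 (13.3%), against 14.1% of all probe sets, and all higher in 0 of 15, against 10.9%. Those 2 were POLR3B, 0.69 lower in MV4-11 (log2 difference -0.69, SE 0.21, adjusted p = 0.0796), and GTF3C2 on 212429_s_at (-0.40, SE 0.13, adjusted p = 0.116). GTF3C2 passed with 1 replicate block common to the lines (0.0442). POLR3B passed when only the scrambled groups were fitted (0.0181), and without the second or the third MV4-11 CHD4 shRNA array (0.0299 and 0.0128). POLR3D was higher in MV4-11 by 0.32 (SE 0.15, adjusted p = 0.265). These differences use the same scrambled arrays as the changes given above.

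Other genes of polymerase III transcription and, for comparison, of polymerases I and II were taken from 8 lists, with 54 genes and 77 probe sets measured. Of these, 2 of 77 passed limma in U937 (2.60%, against 4.51% of all probe sets), both lower. In MV4-11, 7 of 77 passed (9.09%, against 7.47%), 3 higher and 4 lower. Over all 8 lists, 15 of 77 probe sets had an unadjusted p under 0.05 in U937 (19.5%, against 17.0% of all probe sets). In MV4-11 there were 24 of 77 (31.2%, against 22.3%). In U937 the 6 lists without a call held 59 probe sets, of which 11 had an unadjusted p under 0.05 (18.6%). In MV4-11 the 3 lists without a call held 21, of which 5 had one (23.8%). These quiet lists were picked by their lack of calls, so their shares do not stand for the whole. With the replicate block within MV4-11 the count in MV4-11 was 14 of 77 (18.2%), against 13.1% of all probe sets in that fit. With a block within each line it was 20 of 77 (26.0%), against 16.7% of all probe sets.

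CRCP, the only other subunit particular to polymerase III with a probe set here, was not lower: its log2 changes were 0.22 (SE 0.12) and 0.04 in U937 and 0.24 (SE 0.12) and 0.04 in MV4-11, none past the threshold (lowest limma adjusted p = 0.26). Subunits shared between polymerases had a median log2 change of -0.21 over 11 probe sets in U937, 9 of them below 0, and of 0.05 in MV4-11. Of these, POLR2L rose in MV4-11 on 211730_s_at, from 10.70, 10.59 and 10.26 to 11.58, 11.79 and 11.04 (log2 change 0.95, SE 0.19, adjusted p = 0.0108). The call was lost without the first MV4-11 CHD4 shRNA array (0.0552), and the dimmer POLR2L probe set 202586_at changed by 0.38 (SE 0.13, adjusted p = 0.104).

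The remaining TFIIIA, TFIIIB and TFIIIC genes had a median log2 change of -0.10 over 8 probe sets in U937 and of -0.07 in MV4-11, none past the threshold. GTF3A, the factor TFIIIA that brings the polymerase to 5S ribosomal RNA genes, was singled out after its values were seen. Both its probe sets were separate between groups in both lines, for example 12.15, 12.20 and 12.22 against 11.93, 11.76 and 11.90 in U937 on 215091_s_at. The log2 changes of GTF3A were -0.32 and -0.33 in U937 and -0.30 and -0.30 in MV4-11 (SE 0.09 each), with limma adjusted p between 0.0509 and 0.0573. With the replicate block within MV4-11 the GTF3A adjusted p was 0.0343 and 0.0359 in U937 and 0.0298 and 0.0325 in MV4-11, all past the threshold, as they were with a block within each line (0.0238 to 0.0325). With 1 block common to the lines none passed (0.0631 to 0.0738). Other list probe sets also gained a call in MV4-11 with a block within MV4-11 or within each line, and are not named.

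The 11 probe sets of factors that act at small nuclear RNA promoters had medians of 0.08 in both lines, none past the threshold. Among regulators, MYC, which is known to bind TFIIIB and to raise polymerase III transcription, fell in both lines. It went from 12.29, 12.22 and 12.55 to 11.85, 11.38 and 11.35 in U937 (log2 change -0.83, SE 0.20, limma adjusted p = 0.0362) and from 11.75, 12.06 and 11.97 to 11.12, 11.45 and 10.55 in MV4-11 (-0.89, SE 0.20, adjusted p = 0.0198). The U937 call of MYC was lost without any 1 of the scrambled U937 arrays (0.0962, 0.0719 and 0.135), the second or the third U937 CHD4 shRNA array (0.146 and 0.13), the second scrambled MV4-11 array (0.0505) or the first MV4-11 CHD4 shRNA array (0.0538). The MV4-11 call was lost without the second or the third scrambled MV4-11 array (0.0717 and 0.0675) or the first CHD4 shRNA array (0.0619).

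In transfer RNA maturation and export, XPOT, the exportin of transfer RNA, fell in MV4-11. It went from 11.99, 12.07 and 12.36 to 11.33, 11.11 and 11.76 (log2 change -0.74, SE 0.16, limma adjusted p = 0.0174). In U937 its change was -0.41 (SE 0.16, adjusted p = 0.204). The MV4-11 call was lost without the third scrambled array (0.0764) or the first or second CHD4 shRNA array (0.0773 and 0.0662). The 15 probe sets of this list had a median of -0.13 in U937 and 0.08 in MV4-11.

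In the polymerase I list, POLR1E, a subunit of polymerase I, fell in both lines. The arrays went from 8.70, 8.71 and 9.14 to 8.44, 8.18 and 8.31 in U937 (log2 change -0.54, SE 0.12, limma adjusted p = 0.026) and from 8.88, 8.87 and 8.69 to 8.19, 8.12 and 8.23 in MV4-11 (-0.63, SE 0.12, adjusted p = 0.00913). Its U937 call was lost without the third scrambled U937 array (0.0843) or the second or the third U937 CHD4 shRNA array (0.12 and 0.0792), and its MV4-11 call with no single array left out. TAF1B, of the promoter factor of polymerase I, rose in MV4-11 by 0.81 (SE 0.19, adjusted p = 0.0246) and 0.67 (SE 0.19, adjusted p = 0.0471) on its 2 probe sets. Both TAF1B calls were lost without the second scrambled MV4-11 array (0.0672 and 0.137), the third (0.093 and 0.151), or the first or second CHD4 shRNA array (0.115 and 0.195, then 0.0826 and 0.132); the weaker was also lost without 4 U937 arrays, the first and second of each group (0.0548 to 0.0642). Among polymerase II subunits, POLR2G fell in MV4-11 by 0.44 on the log2 scale (SE 0.11, adjusted p = 0.0361), a call lost without any 1 of 8 arrays: the first or second scrambled or the second CHD4 shRNA array of U937, any scrambled array of MV4-11, or its first or second CHD4 shRNA array (0.0525 to 0.164). Fitted on the arrays of 1 line alone, calls in these lists were lost in MV4-11 for MYC (0.0734), XPOT (0.0718), POLR2L (0.0512), POLR2G (0.0977) and TAF1B on 216941_s_at (0.0905), and in U937 for POLR1E (0.0576). A replicate block shared by both lines ended the call of MYC in U937 (0.0568), and in MV4-11 those of POLR2G (0.052) and TAF1B on 216941_s_at (0.0668), which median centring ended too (0.0556).

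**Figure D4:**
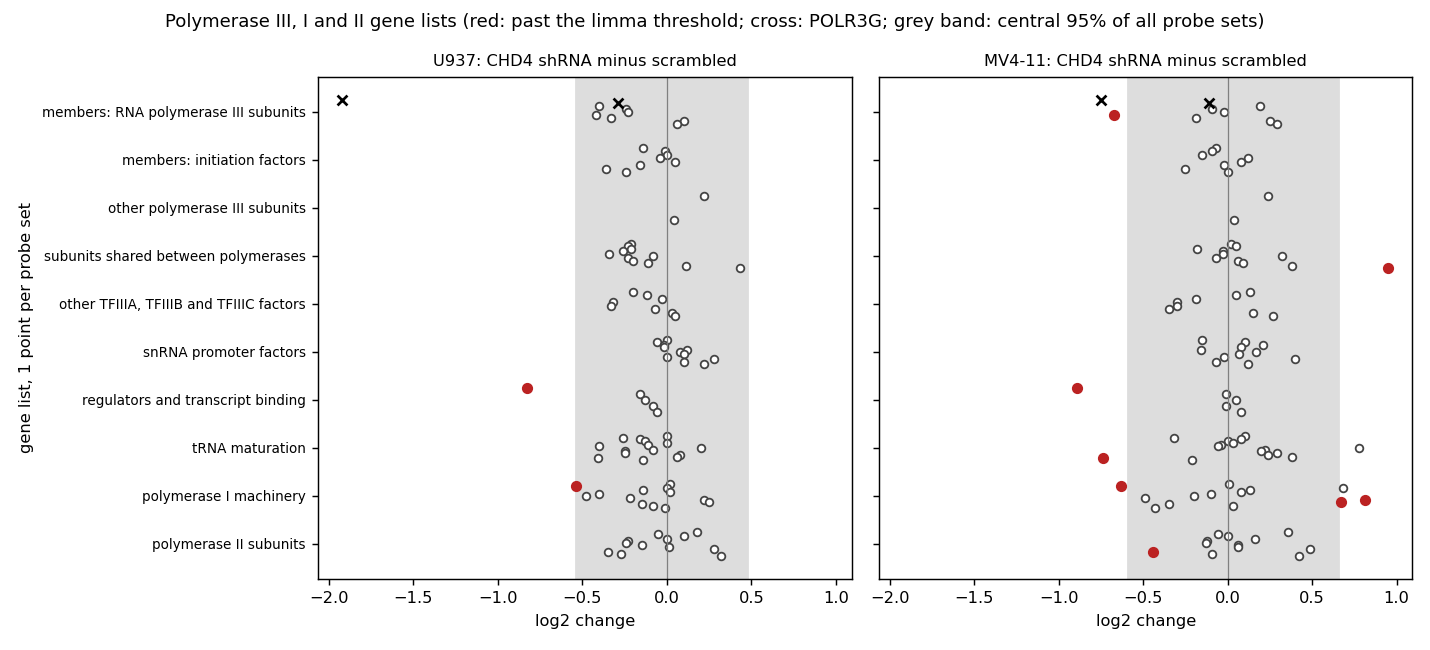
Log2 change of each probe set in the member groups and the 8 lists, in U937 (left) and MV4-11 (right); red points passed the limma threshold, crosses are POLR3G, and the grey band holds the central 95% of all probe sets (-0.54 to 0.48 in U937, -0.59 to 0.66 in MV4-11). Besides POLR3G at -1.92, only MYC at -0.83 lies beyond the band in U937, with POLR1E at its edge.

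The genes whose profile over the 12 arrays was most like that of POLR3G were outside the polymerase machinery. Likeness was the root mean square difference between log2 profiles, each centred on its own mean, with 1 probe set per gene, and is a description over arrays that share the lines and hairpins. The smallest differences were those of ZFP69B and RIOX2 (0.28 each), TSPAN7 (0.33), NTRK3 (0.33) and GSTA4 (0.34). ZFP69B is a zinc finger gene, RIOX2 a ribosomal oxygenase, TSPAN7 a tetraspanin, NTRK3 a neurotrophin receptor and GSTA4 a glutathione transferase. ZFP69B had group means of 6.46 and 4.78 in scrambled and CHD4 shRNA U937 cells and of 6.10 and 4.95 in MV4-11, changes of -1.68 and -1.15. The other 4 changed by -1.31 to -1.49 in U937 and by -0.50 to -1.14 in MV4-11. Probe sets of the other 9 genes of the machinery differed from the POLR3G profile by 0.66 to 0.94. The dim POLR3G probe set 206654_s_at also differed by 0.66. Profiles were not scaled, so a probe set with small changes is far from this profile whatever its direction. It also uses the U937 arrays on which POLR3G was picked, so it favours genes with large decreases there. The measure thus cannot tell whether the other 9 genes follow POLR3G. That the nearest genes lie outside the machinery is no result about the machinery. Without the third scrambled U937 array, or without the second U937 CHD4 shRNA array, 3 of these 5 genes stayed among the 5 most alike, and ZFP69B and RIOX2 stayed in all 12 such repeats.

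**Figure D5:**
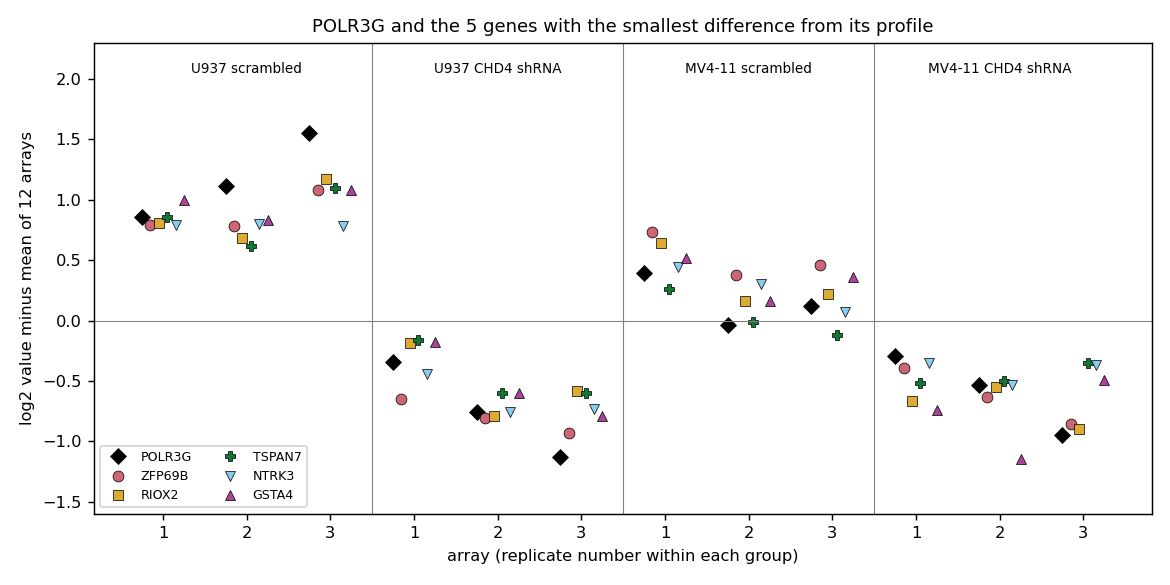
Log2 value minus its mean over 12 arrays for POLR3G (diamonds) and the 5 genes with the smallest root mean square difference from it, by array in the 4 groups. POLR3G ran from 1.55 on a scrambled U937 array to -1.13 on a U937 CHD4 shRNA array, and the 5 genes stayed between 1.17 and -1.15.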

How the data were processed

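The authors deposited 1 table of log2 values for 12 arrays, and the submitters' processing notes name RMA (no version given in the sources used here); values ran from 2.54 to 15.11, as on a log2 scale. RMA equalises array distributions, and hides any shift common to most genes, and background signal compresses the changes of dim genes. Array medians were 6.97 to 7.02. No detection calls were used, and the number of arrays limits precision.

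Of 22277 probe sets, 62 controls were left out. Of the remaining 22215, 19064 were annotated to 1 gene, 1043 to more (left unnamed) and 2108 to none listed; 19052 Entrez identifiers were found in RefSeq. Groups came from the sample labels. limma 3.58.1 in R 4.3.3 (lmFit and eBayes, 4 groups, all 12 arrays, 8 residual and 4.86 prior degrees of freedom) was fitted to all 22215, with Benjamini-Hochberg adjustment over all of them and a threshold of 0.05. It was also run on simulated data with independent arrays. Those lack the same-number correlation of the real arrays, so that run does not bear on the effect of a block. The series text calls the triplicates biological.

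The members and lists were chosen with earlier results of these data known. All member probe sets, CHD4, list genes past the threshold, POLR3GL and the 5 genes most like POLR3G were named. Titles number the replicates 1 to 3 in every group. Same-number arrays correlated in their deviations at 0.43, 0.47 and 0.49 in MV4-11 and 0.01, 0.34 and 0.36 in U937. Member results whose call a block would alter therefore carry the blocked value. For the lists the counts with a block are given, and only GTF3A is named among the genes that gained a call. Titles and the same-number correlation are the basis of the pairing. Alternatives were 1 probe set per gene, leaving out the dimmest 25%, quantile normalization, median centring, a trended and robust fit, only the groups compared, replicate blocks, thresholds of 0.01 and 0.10, and leaving out each array. The block within MV4-11 alone, and the use of these settings on the lists, were added after seeing the data.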

Additional observations from a re-analysis of the deposited data

How the results depend on the processing

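Of 23 alternatives, 21 gave single member values, in 1345 comparisons. Of these, 1298 kept their direction without gaining or losing a call, 31 changed sign without a call, 4 lost a call, 12 gained one and 0 called values changed sign. Many of these comparisons could not move a change. Replicate blocks, the trended and robust fit, the probe set filters and fitting only the groups compared leave the estimate as it is. So does leaving out an array of a group not compared. POLR3G outside the MV4-11 change carried no test and could not gain or lose a call. The change of POLR3G lay between -1.72 and -2.12 in U937 and between -0.57 and -0.90 in MV4-11 on 206653_at, and between -0.20 and -0.38 in U937 and between -0.04 and -0.20 in MV4-11 on 206654_s_at. In U937 the count of member probe sets past the threshold was 0 and became 1 without the dimmest 25% of probe sets, after quantile normalization, at an adjusted p under 0.10 and with a replicate block within each line, each time GTF3C2 210620_s_at, and 2 with the replicate block within MV4-11 alone. Leaving out single arrays gave 0 to 1. In MV4-11 the count was 1 and became 0 when only the groups compared were fitted and at an adjusted p under 0.01, 2 at 0.10 and 2 with the replicate block within MV4-11 alone, with 0 to 2 when single arrays were left out. In the scrambled comparison it was 0 and became 1 when only those groups were fitted, 1 with a shared replicate block and 1 at 0.10, with 0 to 1 over single arrays left out. Fitting fewer groups leaves fewer arrays to estimate the spread. The difference between the lines gave 0 under every alternative. Of the 5 genes most like POLR3G, 3 to 5 were retained when single arrays were left out. Over all probe sets the calls numbered 1002 in U937 (396 to 1210 over single arrays left out, 2151 when each line had its own block and 1626 when only MV4-11 had 1) and 1659 in MV4-11 (546 to 3143, 3700 and 2912 in these same fits, 718 when only its groups were fitted). List probe sets past the threshold ranged from 0 to 8 in U937 and from 1 to 20 in MV4-11. With 3 arrays a group, the changes of POLR3E and POLR3B in U937 did not pass the test at the spread of these probe sets.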
